A study of Arabidopsis thaliana with 12 samples.

Results

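The subject of this account is the brightest transcripts of wild-type Arabidopsis thaliana, a small flowering plant of the cabbage family, followed into a mutant without cytochrome c6. In each wild-type sample all 3439 array probes were ranked by intensity, as a fraction in which 1 is the brightest, and the ranks were averaged over the 6 samples. A mean rank of 0.90 or more was reached by 307 probes, of which 50 are assigned to a single gene in the platform's annotation. A fixed list of 20 genes, most of them of photosynthesis and plastids, was set aside, and 6 of these were among the 50. The remaining 44 genes, each with 1 probe, still include chloroplast genes. The wild type was the Columbia 0 ecotype (WT, 6 samples). The other genotype was atc6, a mutant in the same ecotype that per the labels lacks the cytochrome c6 protein (6 samples). Both were raised on MS medium, a mineral medium for plant culture. The labels give neither tissue nor age, nor whether samples of 1 genotype came from separate plants. The spread behind every p-value may therefore be technical.

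Cytochrome c6 binds haem and lies in the thylakoid lumen, and in algae and cyanobacteria it can carry electrons between the cytochrome b6f complex and photosystem I, the place that plastocyanin holds in plants. Green tissue makes most of its messenger RNA from a small share of its genes, those for light harvesting, carbon fixation and protein synthesis among them. On a spotted array the brightness of a probe depends on the probe as well as on its transcript, so the ranks compare probes and are no measure of molecules per cell. In bulk RNA, fewer cells of a type and less RNA per cell cannot be told apart.

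The label of abundant transcripts was checked against 100 genes in 8 lists, 6 of photosynthesis and photorespiration, 1 of constitutive genes and 1 of seed storage proteins. Only 6 of these genes had a probe of their own, and 3 of the 6 had a wild-type rank of 0.90 or more. These were PSBW (photosystem II subunit W) at a mean rank of 0.997, LHB1B2 (a light-harvesting protein, also called LHCB1.5) at 0.990 and PSAN (photosystem I subunit N) at 0.937. The others were PSBY at 0.888, SBPASE at 0.727 and PRK at 0.515, the last 2 being enzymes of the Calvin-Benson cycle. None of the 6 belongs to the 44, and no seed storage or constitutive gene had a probe of its own. Probes assigned to several genes were not searched for the lists. The lists thus say little about the 44 themselves. The 44 are called the highest-ranked genes here.

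The samples of each genotype formed close doublets, replicates 1 and 2, 3 and 4, and 5 and 6, which were averaged, so that levels rest on 3 averaged doublets per genotype. Median deposited intensities of all probes were 0.485 to 0.627 in wild type, 0.323 to 0.500 in atc6 replicates 3 to 6, and 4.46 and 4.52 in atc6 replicates 1 and 2. The brightest probe stood 98.9 to 309 times above the median in the other samples and only 6.76 and 6.95 times above it in atc6 replicates 1 and 2. Their top end was thus compressed. Values without this doublet are given where they changed the direction of a described difference or moved it by more than 1.5 times, and for some others.

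The 44 genes were well above the middle of every wild-type sample. They were chosen for high wild-type ranks, so the wild-type values given here are a description. Their median intensity was 3.69 to 5.31 times the median of all probes in the wild-type samples, and the lowest rank of any of them in any wild-type sample was 0.856. Of the 44, 28 were at 0.90 or more in all 6 wild-type samples and 30 in all 3 averaged doublets. Together they held 6.03% to 7.13% of the summed intensity of a wild-type sample. In atc6 they held 6.28% to 7.07% in replicates 3 to 6, and 3.03% and 2.998% in replicates 1 and 2. None of the 44 was listed at 0 in any of the 12 samples.

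**Figure D1:**
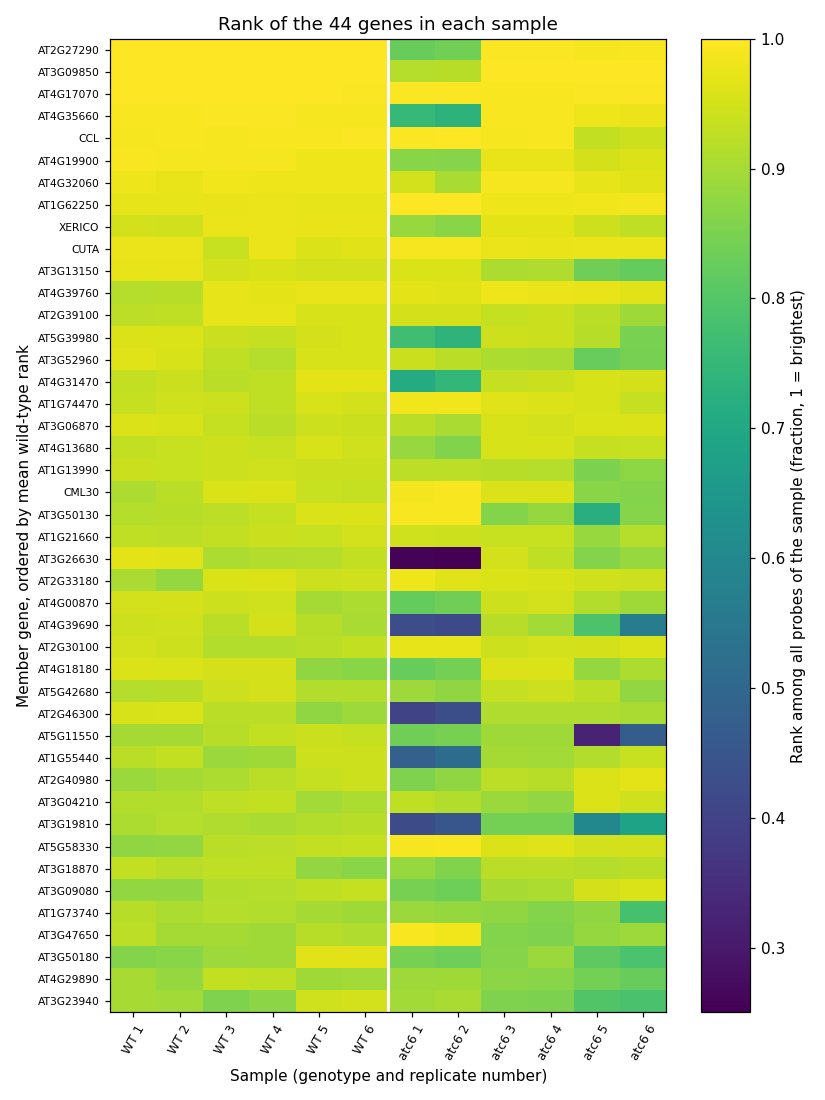
Rank of each of the 44 genes (rows, ordered by mean wild-type rank) in each of the 12 samples (columns), as a fraction of all probes in which 1 is the brightest. The wild-type columns are nearly uniform, while single genes drop in atc6 replicates 1 and 2 (AT3G26630, at a doublet rank of 0.255) or in replicates 5 and 6 (AT5G11550, at 0.397).

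Of the 44 genes, 6 carry a name or description in the gene table and 38 only a locus tag, for which no role is stated here. The 6 were described because they are annotated, and fall into 3 chloroplast proteins and 3 of regulation or without a defined reaction. AT1G74470 encodes geranylgeranyl reductase, which makes the phytyl chain of chlorophyll and tocopherol. Its deposited intensities had a lowest value of 2.32, a median of 2.70 and a highest of 2.91 in wild type. They were 20.1 and 19.97 in atc6 replicates 1 and 2, 3.38 and 3.06 in replicates 3 and 4, and 2.33 and 1.77 in replicates 5 and 6. As deposited, the wild-type samples lay close together and the atc6 values spread to both sides of them. After normalization its atc6 doublets were at 3.19, 2.52 and 2.30 (log2) and those of wild type at 2.21 to 2.37, so none was below wild type. Its mean rank was 0.942 in wild type and 0.963 in atc6. On the log2 scale of the normalized intensities the level was 2.28 ± 0.08 in wild type and 2.67 ± 0.47 in atc6 (SD, n = 3 averaged doublets), a difference of 0.40 ± 0.28 (SE) that was 0.20 without atc6 replicates 1 and 2.

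AT5G58330 encodes NADP-dependent malate dehydrogenase, which exports reducing power from the chloroplast as malate. Wild-type intensities had a lowest value of 1.64, a median of 2.20 and a highest of 2.40. In atc6 they were 21.0 and 21.7 in replicates 1 and 2, 3.14 and 3.23 in replicates 3 and 4, and 2.24 and 2.20 in replicates 5 and 6. After normalization all 3 atc6 doublets lay above the 3 wild-type doublets. The atc6 mean exceeded that of wild type by 0.84 ± 0.37 (SE; 95% interval -0.01 to 1.69), with adjusted p = 0.845 in limma.

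CUTA encodes a chloroplast protein related to bacterial CutA, a protein of copper tolerance. Its wild-type intensities had a lowest value of 2.64, a median of 4.17 and a highest of 4.90, and in atc6 replicates 3 to 6 they were 4.69 to 4.94. In replicates 1 and 2 they were 20.7 and 21.7. The genotypes overlapped, and the difference was 0.46 ± 0.27 (SE) on the log2 scale, with mean ranks of 0.967 in wild type and 0.982 in atc6. Limma's test passed for none of these 3 genes over all probes.

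CCL (CCR-like), known for a short-lived transcript under control of the circadian clock, was the only annotated gene among the 8 highest-ranked. Its intensities in wild type were 8.82 and 10.3, 10.6 and 13.5, and 15.02 and 15.8 in the 3 doublets. In atc6 they were 22.9 and 24.6, 11.5 and 12.4, and 1.62 and 1.98. Replicates 5 and 6 thus stood far below all other samples, at a doublet rank of 0.936 against 0.991 to 0.996 in the other 5 doublets. The log2 level was 3.87 ± 0.17 in wild type and 3.46 ± 1.16 in atc6 (SD, n = 3), a difference of -0.41 ± 0.52 (SE). It was -1.33 without atc6 replicates 1 and 2 and 0.18 without replicates 5 and 6, so its direction rests on which atc6 doublet is included.

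XERICO encodes a RING finger protein known to raise abscisic acid levels and drought tolerance. Its wild-type intensities were 2.82 and 2.66 in replicates 1 and 2 and 5.01 to 5.52 in the other 4, and in atc6 replicates 3 to 6 they were 3.79, 3.79, 1.92 and 1.63. In replicates 1 and 2 of atc6 they were 12.03 and 11.7. The difference was -0.48 ± 0.30 (SE). CML30, a calmodulin-like calcium-binding protein, had wild-type values of 1.92 to 3.77. In atc6 it was at 20.3 and 22.3, 3.28 and 3.17, and 1.02 and 1.004 in the 3 doublets, the highest and lowest again being replicates 1 and 2 and replicates 5 and 6. Its difference of 0.39 ± 0.45 (SE) was -0.16 without atc6 replicates 1 and 2.

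The 8 genes with the highest mean rank in wild type were AT2G27290, AT3G09850 and AT4G17070 (all at 0.998), AT4G35660 (0.993), CCL (0.992), AT4G19900 (0.988), AT4G32060 (0.981) and AT1G62250 (0.973). These ranks chose the genes and are a description. AT2G27290, the first of all, had intensities of 42.8 and 45.3, 38.5 and 37.6, and 28.5 and 28.5 in the wild-type doublets. In atc6 they were 10.5 and 11.0, 27.1 and 27.9, and 11.0 and 12.7. As deposited, every atc6 value was below every wild-type value, although atc6 replicates 1 and 2 are on a higher scale. Its rank remained 0.997 and 0.991 in the later atc6 doublets and was 0.833 in replicates 1 and 2.

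AT3G09850 behaved differently. Its wild-type intensities were 21.6 to 44.2, while in atc6 they were 13.3 and 13.8 in replicates 1 and 2 and 84.2, 92.1, 90.7 and 100 in replicates 3 to 6. The last is the top value of the whole table, so it may be a lower bound. Both genotypes placed it at the top, with doublet ranks of 0.998 to 0.999 except in atc6 replicates 1 and 2, where it was at 0.917. The log2 difference was -0.57 ± 0.99 (SE) and 0.84 without that doublet.

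AT4G17070 kept doublet ranks of 0.997 to 0.998 in wild type and 0.992 to 0.995 in atc6. Its intensities of 24.5 to 29.8 in wild type did not overlap with those of 12.7 to 23.8 in atc6. AT4G19900 had 6.41 to 10.3 in wild type and 11.6 and 11.6, 4.51 and 4.66, and 2.28 and 2.72 in the atc6 doublets. AT4G35660 had 11.1 to 17.3 in wild type and 8.69 and 8.42, 14.9 and 13.9, and 4.83 and 4.97 in atc6. For these 2 genes atc6 replicates 5 and 6 were the lowest samples as deposited. After normalization replicates 1 and 2 were the lowest doublet instead. The atc6 doublets were then at log2 levels of 1.74, 2.83 and 2.45 for AT4G19900 and of 1.28, 3.89 and 2.99 for AT4G35660.

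AT4G32060 had intensities of 4.47 to 6.98 in wild type. In atc6 it was at 15.4 and 13.0 in replicates 1 and 2, 11.5 and 11.0 in replicates 3 and 4, and 3.47 and 2.96 in replicates 5 and 6. After normalization the atc6 doublets were at log2 levels of 2.14, 3.62 and 2.68, to both sides of the 2.94 to 3.14 in wild type. AT1G62250 was the only one of the 8 with a higher mean rank in atc6 than in wild type, 0.988 against 0.973. Its wild-type intensities were 4.11 to 5.31 and its atc6 intensities 26.2 and 26.4, 5.56 and 5.75, and 7.32 and 7.67, all above wild type. The log2 level was 2.79 ± 0.07 in wild type and 3.90 ± 1.30 in atc6 (SD, n = 3), a difference of 1.11 ± 0.57 (SE) that was 0.54 without atc6 replicates 1 and 2.

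**Figure D2:**
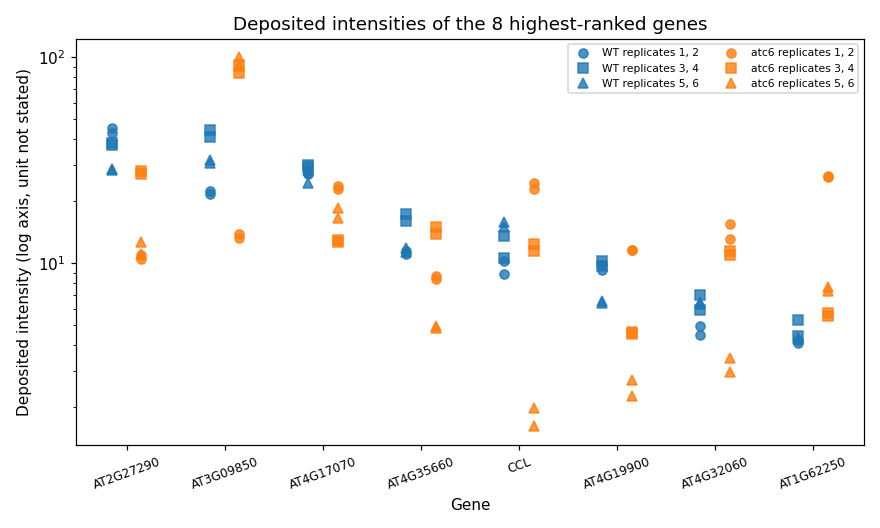
Deposited intensities (log axis, unit not stated) of the 8 highest-ranked genes in all 12 samples, with wild type in blue and atc6 in orange and 1 marker shape per doublet. The atc6 doublets spread more than the wild-type doublets for most genes, and atc6 replicates 1 and 2 are on another scale.

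The genes differed in how steady they were among the wild-type doublets. AT1G13990 and AT3G19810 had the smallest spread, both with an SD of 0.03 on the log2 scale, followed by AT3G47650 at 0.07. AT3G50180 had the largest, 0.47, with intensities of 1.54 to 1.69 in wild-type replicates 1 to 4 and 3.70 and 3.68 in replicates 5 and 6. AT4G39760 followed at 0.42, where replicates 1 and 2 were low at 2.05 and 2.11 against 4.13 to 4.98 in the others. AT2G27290 came next at 0.40. The median SD over the 44 was 0.21 in wild type and 0.44 in atc6, against 0.25 and 0.38 over all 3329 probes fitted. The doublet ranks of a gene differed by more than 0.1 for 1 of 44 genes in wild type and for 19 of 44 in atc6. The rule required high ranks in wild type, which limits the wild-type range and not that of atc6. These 2 counts were not set against all probes, whose median SD was also larger in atc6.

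At the threshold, the members just inside were AT3G23940, AT4G29890 and AT3G50180, at mean wild-type ranks of 0.903, 0.905 and 0.907. The genes just outside were AT3G26580, AT5G06790 and AT2G47360, at 0.895, 0.887 and 0.887. In atc6 the 3 inside were at 0.848, 0.865 and 0.839 and the 3 outside at 0.932, 0.916 and 0.867. AT3G26580, just outside, had 1.53 to 2.07 in wild type and AT3G23940, just inside, 1.36 to 2.68, so their wild-type intensities overlapped.

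The atc6 samples had no part in the choice, and there the ranks were lower on average. The mean rank was still 0.90 or more for 26 of the 44 genes, between 0.80 and 0.90 for 12 and under 0.80 for 6. All 44 were above 0.5. The median rank went from 0.935 in wild type to 0.910 in atc6, with 33 genes lower and 11 higher. Of the 44, 13 were at 0.90 or more in every atc6 doublet and 11 in all 6 doublets of both genotypes. The atc6 doublets differed: 21 genes had their lowest rank of all in atc6 replicates 1 and 2, 13 in replicates 5 and 6, 3 in replicates 3 and 4, and 7 in a wild-type doublet. Of the same 44, 11 had their highest rank of all in atc6 replicates 1 and 2. Without that doublet, 32 of the 44 had a mean rank of 0.90 or more in atc6. The counts of lower and higher ranks, and of lowest and highest doublets, were not set against all probes.

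Genes chosen for high values in some samples tend to be lower on average in others. The same rule was therefore applied to 2 wild-type doublets at a time and the ranks were read in the wild-type doublet left out. It chose 46, 44 and 47 genes, of which 36 (78.3%), 39 (88.6%) and 36 (76.6%) were at 0.90 or more in the left-out doublet. In atc6 replicates 3 and 4 the same genes reached 0.90 in 76.1%, 79.5% and 76.6% of cases, close to the left-out wild-type doublet for 2 of the 3 choices. In replicates 5 and 6 the shares were 60.9%, 63.6% and 57.4%, and in replicates 1 and 2 they were 22 of 46, 22 of 44 and 21 of 47 genes. Both were below all 3 wild-type values. The median ranks of the chosen genes were 0.9349, 0.9365 and 0.9401 in the left-out wild-type doublet. They were 0.939 to 0.940 in atc6 replicates 3 and 4, 0.908 to 0.922 in replicates 5 and 6, and 0.886 to 0.907 in replicates 1 and 2. The 3 choices share most of their genes and no test was made.

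**Figure D3:**
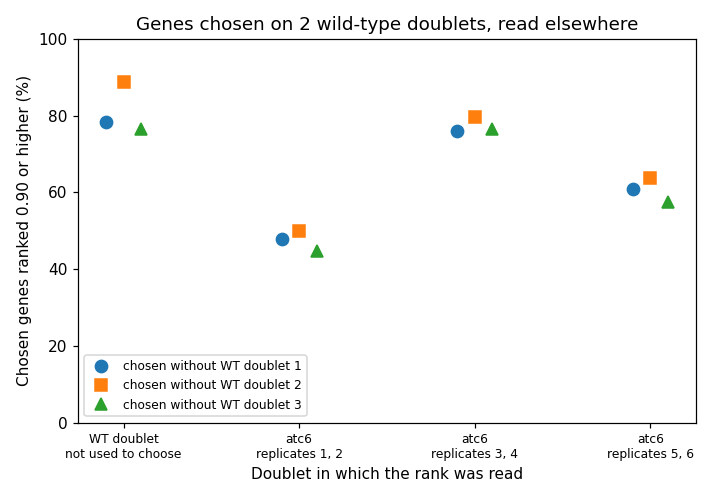
Share of genes (%) ranked 0.90 or higher when the genes were chosen on 2 wild-type doublets and their rank was read in the wild-type doublet left out or in each atc6 doublet. Marker shapes stand for the wild-type doublet not used. Atc6 replicates 3 and 4 lie at 76.1% to 79.5%, beside the left-out wild-type doublets at 76.6% to 88.6%, and the other atc6 doublets lie lower.

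Chosen the other way, on the 6 atc6 samples, the rule gave 34 genes, of which 26 (76.5%) also reached 0.90 in wild type, against 59.1% for the choice on wild type. The 26 shared genes are thus 26 of 44 and 26 of 34. The 8 genes that entered in atc6 alone had wild-type ranks of 0.792 to 0.895. Among them was ATSPS4F, which encodes a sucrose-phosphate synthase, the enzyme that commits carbon to sucrose, at 0.7999 in wild type and 0.923 in atc6. Over all probes, 258 had a mean rank of 0.90 or more in atc6 and 307 in wild type.

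The order among the 44 genes was compared between doublets by Spearman's rho over genes, as a description of genes that share the same samples. It was 0.507 to 0.634 between wild-type doublets. Against the wild-type doublets it was 0.604 to 0.804 for atc6 replicates 3 and 4, 0.453 to 0.507 for replicates 5 and 6, and 0.000493 to 0.309 for replicates 1 and 2. The order in atc6 replicates 1 and 2 thus had the least likeness to the others.

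The 6 genes with a mean atc6 rank under 0.80 were AT3G19810 (0.641), AT4G39690 (0.669), AT3G26630 (0.689), AT5G11550 (0.711), AT2G46300 (0.745) and AT1G55440 (0.773). Their wild-type ranks were between 0.912 and 0.934. AT3G19810 had intensities of 1.84 to 2.10 in wild type, and 3.50 and 3.87, 1.17 and 1.17, and 0.416 and 0.522 in the atc6 doublets. In replicates 3 to 6 all 4 values were below wild type. Its doublet ranks in atc6 were 0.435, 0.844 and 0.644. AT4G39690 had 1.82 to 3.14 in wild type and 3.61 and 3.48, 1.85 and 1.58, and 0.724 and 0.381 in atc6, at ranks of 0.422, 0.907 and 0.679. Both genes were lower than wild type in every atc6 doublet after normalization.

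For AT3G26630, AT2G46300 and AT1G55440 the low mean came from atc6 replicates 1 and 2 alone, at doublet ranks of 0.255, 0.417 and 0.497. In replicates 3 to 6 their mean ranks were 0.906, 0.909 and 0.911. AT3G26630 had intensities of 1.90 and 1.86 in atc6 replicates 1 and 2, where the median of all probes was 4.46 and 4.52, and of 1.90 to 3.74 in wild type. AT5G11550 was the reverse, with 0.199 and 0.303 in atc6 replicates 5 and 6 against 1.53 and 1.54 in replicates 3 and 4, 10.8 and 11.2 in replicates 1 and 2, and 1.84 to 2.42 in wild type. Its doublet ranks in atc6 were 0.842, 0.892 and 0.397.

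**Figure D4:**
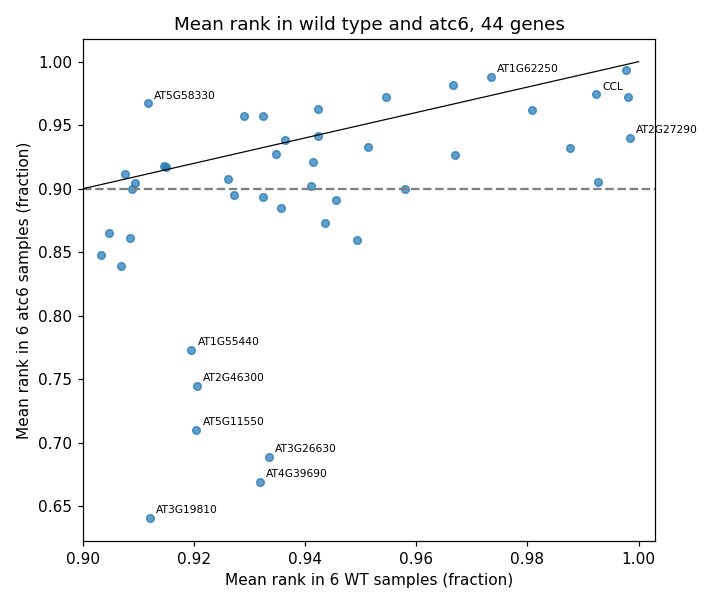
Mean rank over the 6 atc6 samples against mean rank over the 6 wild-type samples for the 44 genes, as fractions of all probes. The solid line marks equal ranks and the dashed line a rank of 0.90. The 26 genes above the dashed line reached the wild-type threshold in atc6, and 6 labelled genes lie under 0.80.

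Differences between the genotypes were fitted over all probes with limma, on log2(normalized intensity + 0.267). The wild-type side of each difference is what chose the genes, which favours lower values in atc6, so counts over the 44 are a description. None of the 44 passed an adjusted p of 0.05, and none of all 3329 probes did (0%). The lowest adjusted p among the 44 was 0.845. At an unadjusted p under 0.05 there were 5 of 44, against 5.02% of all probes, and all 5 were lower in atc6, against 3.03% of all probes. The median 95% interval of the 44 reached 0.66 to either side.

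AT2G27290 was at 5.47 ± 0.40 in wild type and 3.34 ± 1.57 in atc6 (SD, n = 3), which differ by -2.14 ± 0.70 (SE; 95% interval -3.76 to -0.52). It was -1.48 without atc6 replicates 1 and 2. AT4G17070 was at 5.07 ± 0.27 and 4.06 ± 0.28, a difference of -1.01 ± 0.25, which became -1.34 without that doublet. AT4G19900 was at 3.49 ± 0.36 and 2.34 ± 0.56, differing by -1.15 ± 0.34. The next 2, AT4G39690 and AT3G19810, differed by -1.08 ± 0.41 and -1.03 ± 0.34. These 5 are the genes at an unadjusted p under 0.05, and the adjusted p from limma was 0.845 for each. AT4G35660 had the second-largest negative difference, -1.20 ± 0.59, with an unadjusted p of 0.0766. It was -0.67 without atc6 replicates 1 and 2.

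The largest positive differences were those of AT1G62250 and AT5G58330, given above, CUTA, AT3G47650 at 0.43 ± 0.49 (SE), AT1G74470 and CML30. AT3G47650 had 22.7 and 20.2 in atc6 replicates 1 and 2 and 1.12 to 1.28 in replicates 3 to 6, against 1.67 to 2.20 in wild type. The difference was -0.30 without that doublet. On the normalized log2 scale the later atc6 doublets were at 1.71 and 1.83, against 1.89 to 2.02 in wild type. The 3 atc6 doublets lay wholly to one side of the 3 wild-type doublets for 11 of 44 genes, against 11.2% of all probes. They were higher for 3 of 44, against 5.8% of all probes, namely AT1G62250, AT5G58330 and AT2G30100. They were lower for 8 of 44, against 5.38%, which beside the 5 genes just named were AT5G11550, AT1G13990 and AT1G73740.

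The median difference over the 44 was -0.24, with 30 genes negative, against 46.1% of all probes, and 14 positive, against 53.9%. Over all 3329 probes the median was 0.04. The other 263 probes with a wild-type rank of 0.90 or more, those of several genes or none and the 6 genes set aside, had a median of -0.23, with 70.3% negative against 68.2% of the 44. The 258 probes chosen on atc6 in the same way had a median of 0.06, with 45.7% negative. Without atc6 replicates 1 and 2 the median was -0.20 for the 44 (29 negative) and -0.11 for the other bright probes (152 of 263 negative). With all samples the 2 medians were thus nearly alike, and without that doublet the other bright probes lay closer to 0. Whether the 2 sets differ was not tested. Against the wild-type mean the median of the 44 was -0.28 in atc6 replicates 1 and 2, -0.08 in replicates 3 and 4 and -0.34 in replicates 5 and 6. In replicates 1 and 2, 11 of 44 genes were lower by more than 1, against 10.4% of all probes, and 5 were higher by more than 1, against 6.31%. In replicates 3 and 4, 1 gene was lower to that degree, against 0.961% of all probes. In replicates 5 and 6 it was 6 genes, against 4.12%. None of the 44 was higher by more than 1 in these 4 samples. Of all probes, 0.451% were higher to that degree in replicates 3 and 4 and 3.03% in replicates 5 and 6. The part of the compressed scale of replicates 1 and 2 in these differences was not tested.

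**Figure D5:**
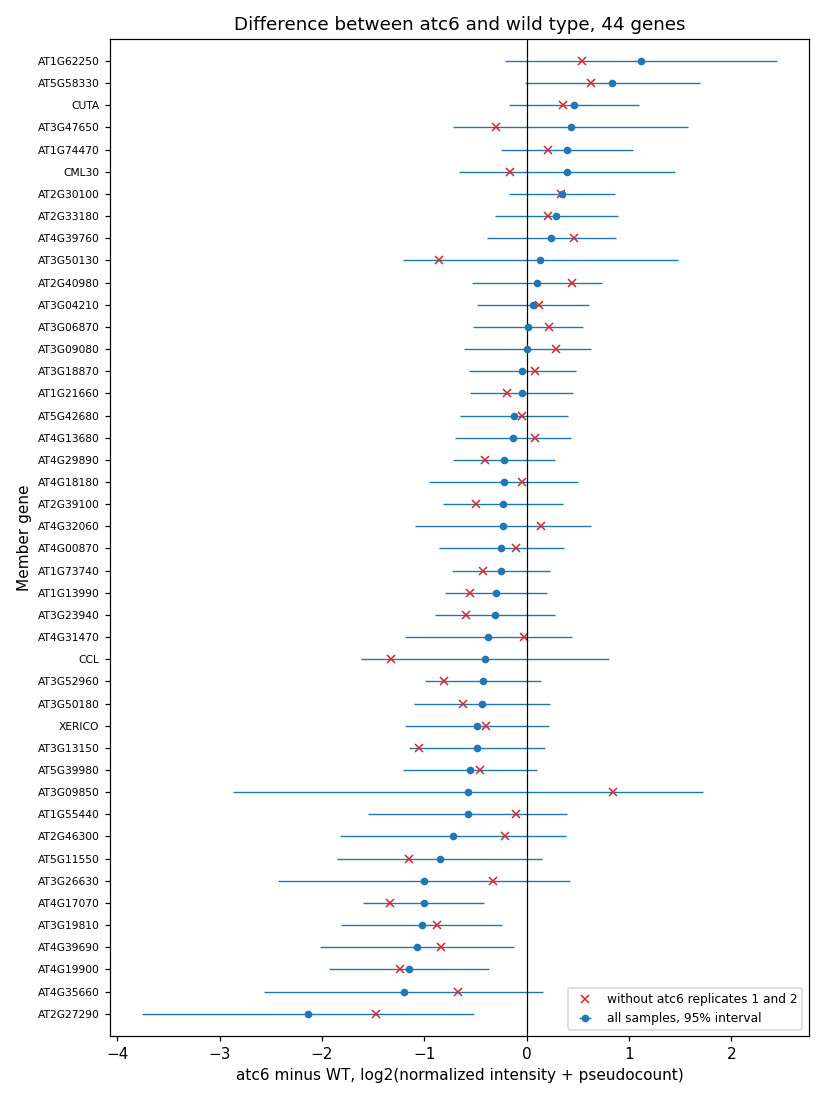
Difference between atc6 and wild type for the 44 genes on the log2(normalized intensity + pseudocount) scale, with points and 95% intervals from limma (3 averaged doublets per genotype). Red crosses give the difference without atc6 replicates 1 and 2. Of the 44 points, 30 lie below 0, and AT3G09850, with the widest spread, moves from -0.57 to 0.84.

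The share of bright probes was compared between kinds of annotation. A wild-type rank of 0.90 or more was reached by 50 of 692 probes with a single gene (7.23%), 72 of 870 with several genes (8.28%) and 185 of 1877 with no gene listed (9.86%). Of the 307 bright probes, 185 thus have no gene listed, and the 44 genes come from the 50 with a single gene. By locus tag, 14 of the 44 genes lie on chromosome 3 (31.8%), 11 on chromosome 4, 9 on chromosome 2 (20.5%), 6 on chromosome 1 (13.6%) and 4 on chromosome 5 (9.09%). All single-gene probes divide as 18.8% on chromosome 3, 17.3% on 4, 17.9% on 2, 25.1% on 1 and 20.7% on 5. Gene neighbours were few: AT3G50130 and AT3G50180 have 4 coding genes between them and AT4G39690 and AT4G39760 have 9.

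For 3 of the 44 genes a second probe, assigned to several genes, names the same gene. The second probe of AT3G50130 had a mean rank of 0.959 in wild type and 0.906 in atc6, beside 0.936 and 0.885 for its own probe. That of AT3G26630 was at 0.885 and 0.814, beside 0.934 and 0.689. That of AT5G42680 was at 0.487 and 0.495, near the middle of all probes, beside 0.926 and 0.908. The 2 probes of AT3G50130 were thus within 0.1 of each other in both genotypes, those of AT3G26630 in wild type alone, and those of AT5G42680 in neither. The platform's assignment of the other 41 genes could not be checked in this way. Probes numbered next to a member had a median wild-type rank of 0.526 against 0.488 for other probes, and 4 of 59 of them (6.78%) were at 0.90 or more against 7.76%.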

How the data were processed

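The deposited table holds 1 intensity on a linear scale per probe and sample, 3439 probes by 12 samples. How the authors scanned, background-corrected and scaled the arrays is not stated in the labels. Ranks were taken on the deposited intensities within each sample, with ties averaged, and do not depend on scaling. For differences, the 110 probes without a positive value were dropped, the samples were quantile-normalized, and a pseudocount of 0.267 (10th percentile of positive values) was added before log2. The division into replicates 1 and 2, 3 and 4, and 5 and 6 had the highest mean correlation of deviations of 15 divisions in both genotypes. Its single pairs correlated at 0.591 to 0.892. The next-best division had a mean of -0.0029 in wild type and 0.231 in atc6, so doublets were averaged. Limma 3.58.1 in R 4.3.3 (lmFit, eBayes, two-sided) was run with Benjamini-Hochberg adjustment over 3329 probes, and was tested on simulated data. Deviations of same-numbered samples of both genotypes correlated at 0.112 to 0.296, from the data and not the labels, so a replicate block was also run.

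Gene names come from the annotation of the platform, of unknown accuracy. Their IDs were found in the TAIR10.1 table for 690 of 692 single-gene probes and all 44 members, and that table served for names and gene order alone. The members, lists and tests were chosen with earlier results of these data known. Named genes were the 8 with the highest wild-type rank, the 6 with the largest difference in each direction, the 3 with the smallest and largest wild-type SD, 3 to each side of the threshold, those under 0.80 in atc6, and listed genes. The annotated genes, those whose doublets did not overlap, those with a second probe and ATSPS4F were named after their values were seen.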

Additional observations from a re-analysis of the deposited data

Results flagged for a closer look

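In wild type, AT1G62250 had 1 sample apart from the other 5. Replicate 4 was at 2.94 on the normalized log2 scale, with the nearest of the others at 2.79 and the lowest at 2.72. As deposited it was 5.31 against 4.11 to 4.44. With independent samples chance flags about 1 in 20 groups in this way, and this was 1 of 48 groups examined. The samples of a doublet are not independent, so that rate may not hold here. The gap is small beside the difference of 1.11 between the genotypes.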

How the results depend on the processing

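Of the 44 genes, 0 passed in all settings run except with 6 against 6 separate samples, which ignores the doublets and called 4 of 44 and 99 of all probes. These 4 were AT2G27290 (-2.14), AT4G17070 (-1.01), AT4G19900 (-1.15) and AT3G19810 (-1.03). Over all probes the count was 0, or 1 with a 1st-percentile pseudocount, 1 with doublets as a random block, 2 without atc6 replicates 3 and 4, and 0 to 1 with single samples left out. With the replicate block it was 0 and no call changed. The median difference of the 44 was 0.37 without normalization, which moved the median of all probes to 0.66, and -0.36 to -0.17 in the other settings. Differences of single genes were recomputed in every setting for 20 of the 44. Among these 20, signs turned for AT3G09850 (0.61 with cyclic loess, 0.65 as deposited, 0.84 without atc6 replicates 1 and 2), AT4G32060 (0.0013, 0.47 and 0.14 in the same order), CML30 (-0.060 with a common median, -0.16 without atc6 replicates 1 and 2), AT3G47650 (-0.0037 and -0.30 likewise), AT1G55440 (0.10 as deposited), XERICO (0.050 as deposited) and CCL (0.18 without atc6 replicates 5 and 6). The cause was not tested. Over all 44, leaving out atc6 replicates 1 and 2 turned 7 signs, those of AT3G50130 (-0.86), AT4G13680 (0.077) and AT3G18870 (0.085) beside the 4 given. The genes at 0.90 or more in atc6 numbered 7 of 13 with a threshold of 0.95 and 45 of 70 with 0.85, where the threshold itself sets the number chosen, and 24 to 28 with single samples left out. Signal over background was not given, so what dim values limit is unknown.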
